A study of Mus musculus with 6 samples.

Results

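The 8 genes described here encode the subunits of condensin I and condensin II. They were taken from the authors' deposited table of 55487 genes by symbol: Smc2 and Smc4, which both complexes share, Ncapd2, Ncapg and Ncaph, which belong to condensin I alone, and Ncapd3, Ncapg2 and Ncaph2, which belong to condensin II alone. All 8 had a row, and all 8 passed the filter on low values that left 17278 genes for testing. Condensins are ring-shaped motor complexes that extrude loops of DNA and fold chromatin into the compact chromosomes of mitosis. SMC2 and SMC4 are the ATPase arms, a kleisin (CAP-H in condensin I, CAP-H2 in condensin II) closes the ring, and a pair of HEAT-repeat proteins (CAP-D2 and CAP-G, or CAP-D3 and CAP-G2) binds to the kleisin. In dividing mammalian cells condensin II is nuclear through interphase and acts from prophase on, whereas condensin I is largely cytoplasmic until the nuclear envelope breaks down; mutations of several subunits cause microcephaly in humans.

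RNA was sequenced from sorted YFP-positive cells of the mouse subventricular zone, the adult germinal niche beside the lateral ventricles, in 3 TKO and 3 THC samples. TKO mice were Rb(F/F);p107(-/-);p130(F/F) and THC mice Rb(F/+);p107(+/-);p130(F/+), both on a mixed C57BL/6;Sv/129 background with NestinCreERT2 and an R26 EYFP reporter. All mice received tamoxifen by gavage (200 mg/kg per day for 5 days, starting at 6 to 10 weeks of age) and were used 10 days after the last dose, so the THC cells can also lose an allele of Rb and of p130, lack an allele of p107 and are not wild type. A sample pooled several mice to reach at least 200000 YFP-positive cells; the reporter marks cells in which the Nestin-driven Cre had been active and their progeny, the p107 allele is labelled as a null and not as floxed, and TKO 1 and THC 1 belong to a February batch, all others to a November batch. The pocket proteins pRb, p107 and p130 restrain E2F-dependent genes, and p107 and p130 are also part of the DREAM complex, which represses many genes of the G2 and M phases.

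The libraries held 15536084 to 16961817 reads assigned to genes. Rbl1, the p107 gene, was at a normalized count of 42.0, 18.3 and 14.5 in TKO 1, 2 and 3, against 520.2, 497 and 646 in THC 1, 2 and 3 (log2 change -4.56, adjusted p = 2.3e-06). The genes with floxed alleles were not lower: Rb1 was at 2877 to 3573 in TKO and 1631 to 2022 in THC (log2 change 0.82, SE 0.13, adjusted p = 0.00066, higher), and Rbl2, the p130 gene, was at 912 to 976 in TKO and 847 to 1250 in THC (-0.13, SE 0.14, adjusted p = 0.544, not passed). Counts per gene do not separate floxed exons from the others, so the loss of Rb and p130 was not checked here. Of 8 marker genes per cell type, none were at 0 in all libraries. Over all genes tested, 14.3% were called higher and 13.6% lower at a limma adjusted p under 0.05. Oligodendrocyte markers summed to 16314 to 26834 in TKO and 88882 to 96920 in THC (0 higher, 8 lower), neuroblast markers to 19172 to 25386 in TKO and 28044 to 40537 in THC (0 higher, 5 lower), and astrocyte and quiescent stem cell markers to 117414 to 149988 in TKO and 148918 to 262704 in THC (0 higher, 4 lower). Endothelial markers summed to 2219 to 3056 in TKO and 4784 to 10951 in THC (0 higher, 7 lower), microglial markers to 644 to 4370 in TKO and 317 to 2620 in THC (4 higher, 0 lower), and ependymal markers to 5044 to 6683 in TKO and 4280 to 12652 in THC (1 higher, 2 lower). The highest microglial sums were those of the February libraries TKO 1 (4370) and THC 1 (2620), against 317 to 1030 in the November libraries. The genotypes did not overlap in the oligodendrocyte, neuroblast and endothelial sums and overlapped in the others. Abundant genes lead such sums. Slc1a3 was the largest part of the astrocyte and quiescent stem cell sum, with a log2 change of 0.00. The 4 genes of that list called lower, Aldoc, Ntsr2, Slc7a10 and Gja1, changed by -2.35, -2.38, -2.47 and -0.62. The part of any of these cell types in the results below was not tested. In such bulk samples a change in the number of cells that express a gene and a change in RNA per cell cannot be told apart.

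Promoter windows were compared between the genes. RefSeq (GRCm38.p6) lists a window of 250 bases before and 50 after a transcript start for 7 of the 8 genes; Smc4 has none in the table, and Ncapd3 has 2. The windows were searched on both strands for E2F words (TTTCGCGC, TTTGGCGC, TTTCCCGC or TTTGCCGC), for the cell cycle genes homology region or CHR, through which DREAM and B-MYB complexes are known to bind (TTTGAA or TTCGAA), and for CCAAT, the NF-Y box that often lies upstream of a CHR. The following 5 windows are shown because they cover the shared and the complex-specific subunits and the ends of the range of changes; capitals mark matches of any of these words on either strand, and each runs 5′ to 3′ along the gene's own strand.
Smc2 (chr4:52438971-52439270, plus strand): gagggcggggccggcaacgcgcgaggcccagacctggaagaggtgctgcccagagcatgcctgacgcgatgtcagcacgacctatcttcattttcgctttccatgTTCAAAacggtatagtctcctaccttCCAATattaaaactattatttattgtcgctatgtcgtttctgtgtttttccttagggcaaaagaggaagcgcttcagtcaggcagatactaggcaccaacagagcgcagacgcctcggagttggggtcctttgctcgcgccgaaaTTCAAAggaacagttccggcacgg
Ncapd2 (chr6:125191537-125191836, minus strand): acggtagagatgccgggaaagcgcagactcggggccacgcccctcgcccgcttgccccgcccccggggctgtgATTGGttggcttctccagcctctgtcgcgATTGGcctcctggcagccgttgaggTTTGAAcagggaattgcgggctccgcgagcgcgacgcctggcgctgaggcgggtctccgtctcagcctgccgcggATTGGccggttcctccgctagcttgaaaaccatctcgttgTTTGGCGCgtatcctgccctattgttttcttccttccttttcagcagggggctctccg
Ncapg (chr5:45669675-45669974, plus strand): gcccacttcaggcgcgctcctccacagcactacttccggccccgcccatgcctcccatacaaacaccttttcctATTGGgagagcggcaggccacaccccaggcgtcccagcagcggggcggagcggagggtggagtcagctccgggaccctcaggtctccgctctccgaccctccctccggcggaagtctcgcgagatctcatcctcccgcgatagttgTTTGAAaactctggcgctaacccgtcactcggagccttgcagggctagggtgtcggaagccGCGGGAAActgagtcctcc
Ncapg2 (chr12:116405186-116405485, plus strand): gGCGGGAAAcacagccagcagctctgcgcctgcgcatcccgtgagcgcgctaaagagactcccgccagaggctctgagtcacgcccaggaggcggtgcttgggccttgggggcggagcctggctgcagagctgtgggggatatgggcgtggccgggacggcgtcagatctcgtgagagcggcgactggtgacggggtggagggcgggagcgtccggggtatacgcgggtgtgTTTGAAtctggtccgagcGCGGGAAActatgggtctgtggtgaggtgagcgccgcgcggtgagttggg
Ncaph2 (chr15:89355469-89355768, plus strand): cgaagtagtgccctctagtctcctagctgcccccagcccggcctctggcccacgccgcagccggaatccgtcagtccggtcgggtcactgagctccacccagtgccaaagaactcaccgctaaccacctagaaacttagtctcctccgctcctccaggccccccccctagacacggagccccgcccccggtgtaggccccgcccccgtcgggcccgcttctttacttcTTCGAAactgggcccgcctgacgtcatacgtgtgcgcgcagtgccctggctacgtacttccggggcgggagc

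A CHR word was present in a window of 6 of the 7 genes, whereas 19.2% of all 32851 windows hold one. The first is a count per gene and the second a share per window, and Ncapd3 has 2 windows. In Ncapg, Ncapg2 and Ncaph2 it lay at bases -30 to -25, -18 to -13 and -22 to -17 from the start, in Ncapd2 at -123 to -118, and in Smc2 on the opposite strand at -145 to -140 and 27 to 32 (the start base counts as 1). These positions count from the RefSeq start, and the gene spans and neighbour distances below use GENCODE starts. The GENCODE start of Ncapd2 (125191701) lies upstream of its RefSeq start, within the window, so positions in Ncapd2 depend on the start used. The Ncapd3 match lay in the window of its downstream start only, and the window at the start of its gene span held none of these words. E2F words were found in Ncapd2 (-8 to -1), Ncapg (32 to 39) and Ncapg2 (1 to 8, with another at the upstream end of the window), and occur in 2.26% of all windows. CCAAT was found in Smc2, Ncapg and, with 3 copies, Ncapd2, against 37.4% of all windows. The window of Ncaph (chr2:127133905-127134204, minus strand) held none of these words. A match is a word in the sequence and was not tested as a binding site.

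All 8 condensin subunit genes were higher in TKO than in THC cells, at limma adjusted p-values of 1.7e-06 to 0.00081. Of all genes tested, 14.3% were called higher at an adjusted p under 0.05, 13.6% were called lower and 27.9% were called in either direction. For each of the 8 genes every TKO library lay above every THC library, which was the case for 19.4% of the genes tested. The median log2 change of the 8 genes was 1.44, with a range of 0.79 to 1.91, beside a median of 0.00 over all genes tested and 1.03 over genes called higher. A log2 change of at least 1 was reached by 7 of the 8 genes, and by 7.37% of all genes tested with a call. By class, the median log2 change was 1.53 for the SMC subunits, 1.45 for the condensin I-only subunits and 1.35 for the condensin II-only subunits, and the condensin II-only class held both the highest and the lowest member.

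Smc2 (chromosome 4, 52439243 to 52488260, GRCm38, plus strand), the first ATPase subunit, had normalized counts of 6442, 6689 and 6696 in TKO 1, 2 and 3, against 2708, 1988 and 2737 in THC 1, 2 and 3. The TKO libraries were close to each other and all more than 2.35-fold above the highest THC library. The change was 1.43 on the log2 scale (SE 0.15, 95% CI 1.11 to 1.75, limma adjusted p = 2.3e-05). Smc4 (chromosome 3, 69004738 to 69034623, plus strand), its partner in the ATPase dimer, had 9528, 11794 and 10267 in TKO, against 3461, 2753 and 4150 in THC. It was the most abundant of the 8 in normalized counts in every TKO library, and its change was 1.62 (SE 0.17, adjusted p = 2.3e-05). THC 2 was the lowest THC library for both SMC genes, and without it the changes were 1.27 and 1.43.

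**Figure D1:**
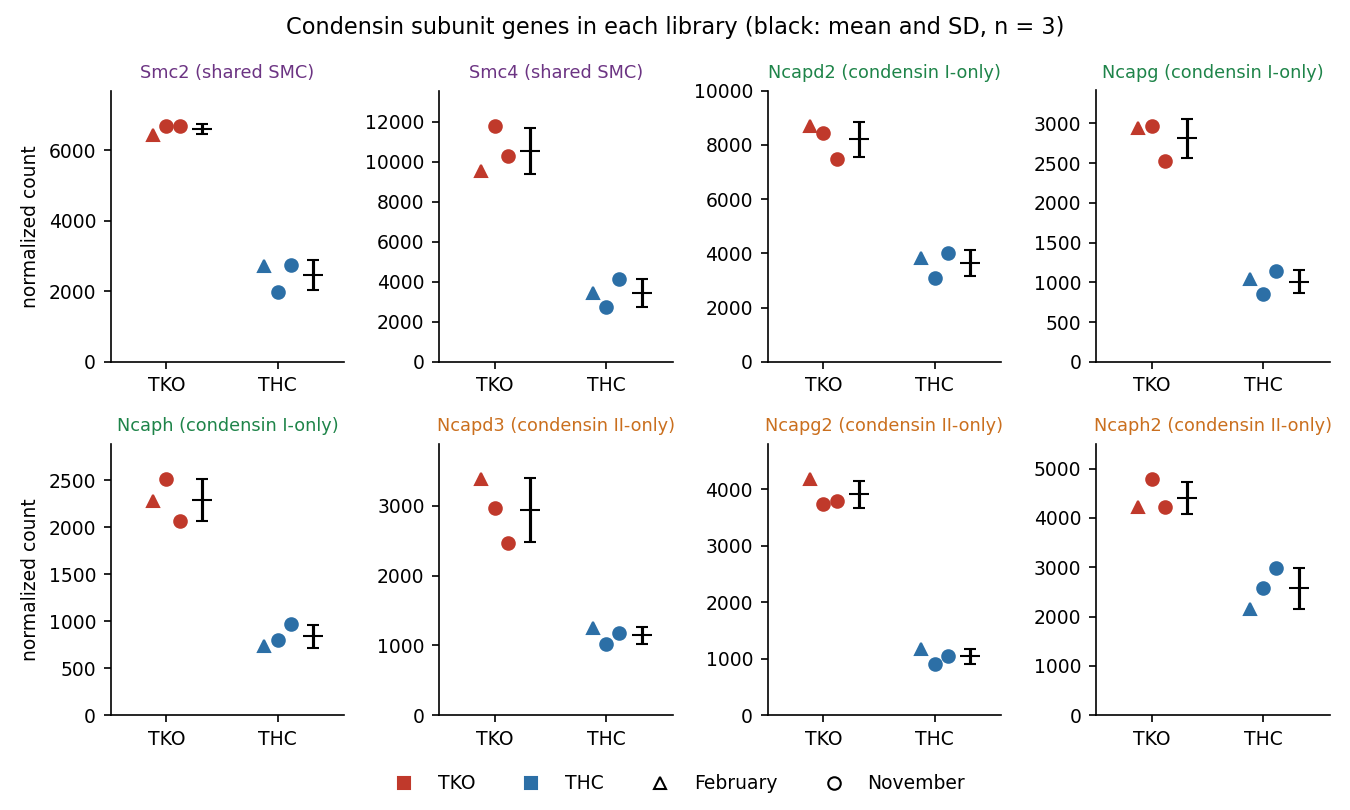
Normalized count (vertical axis, from 0, with a scale of its own in each panel) of each condensin subunit gene in the TKO and THC libraries; triangles are February and circles November libraries, and the black mark with bars is the mean with the SD of 3 libraries. In every panel the TKO points lie above the THC points, most closely for Ncaph2 (lowest TKO 4211, highest THC 2977) and most widely for Ncapg2 (3741 and 1179).

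Among the condensin I-only genes, the HEAT-repeat subunit Ncapd2 (chromosome 6, 125168007 to 125191701, minus strand) had normalized counts of 8698, 8434 and 7474 in TKO, against 3819, 3096 and 4010 in THC. Its change of 1.18 (SE 0.14, adjusted p = 7.1e-05) was the smallest of the class. Ncapg (chromosome 5, 45669919 to 45700546, plus strand), the second HEAT-repeat subunit, had 2939, 2968 and 2530 in TKO, against 1038, 851 and 1139 in THC, a change of 1.48 (SE 0.14, adjusted p = 1.3e-05). The kleisin Ncaph (chromosome 2, 127103809 to 127133954, minus strand), which bridges the ATPase heads, had 2284, 2514 and 2069 in TKO, against 742, 803 and 969.5 in THC, a change of 1.45 (SE 0.14, adjusted p = 1.4e-05). For these genes TKO 3 was the lowest TKO library throughout, still at least 1.86-fold above the highest THC library.

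The condensin II-only genes spread further. Ncapg2 (chromosome 12, 116405402 to 116463731, plus strand), the HEAT-repeat counterpart of Ncapg, had 4175, 3741 and 3797 in TKO, against 1179, 908 and 1038 in THC. The lowest TKO library was 3.17-fold above the highest THC library, and the change of 1.91 (SE 0.12, 95% CI 1.65 to 2.17, adjusted p = 1.7e-06) had the 21st smallest p of all genes tested. Ncapd3 (chromosome 9, 27030175 to 27095315, plus strand), the counterpart of Ncapd2, had 3381, 2962 and 2468 in TKO, against 1243, 1012 and 1180 in THC, a change of 1.35 (SE 0.13, adjusted p = 1.5e-05). The kleisin Ncaph2 (chromosome 15, 89355719 to 89372826, plus strand) had 4230, 4786 and 4211 in TKO, against 2152, 2587 and 2977 in THC. Its libraries did not overlap either, but the change of 0.79 (SE 0.13, 95% CI 0.50 to 1.07, adjusted p = 0.00081) was the smallest of the 8 and its interval lay below that of Ncapg2.

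All 8 differences had the same sign in both batches. Within February (1 TKO and 1 THC library, no test) the log2 differences ran between 0.97 for Ncaph2 and 1.82 for Ncapg2, and within November between 0.69 and 1.96 for the same genes. Ncapd2 gave 1.19 in February and 1.17 in November, and Ncapg 1.50 and 1.48. The SMC genes were higher in November (Smc2 1.52, Smc4 1.70) than in February (1.25 and 1.46), whereas Ncaph was higher in February (1.62) than in November (1.37), differences that were not tested. Each subunit also had a nearly equal value in the authors' deposited table, whose log2 fold changes, TKO over THC, run between 0.79 for Ncaph2 and 1.91 for Ncapg2, with adjusted p-values of 3.8e-07 and 1.3e-42. Both sets of values come from the same libraries and counts, so their closeness is no separate check.

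**Figure D2:**
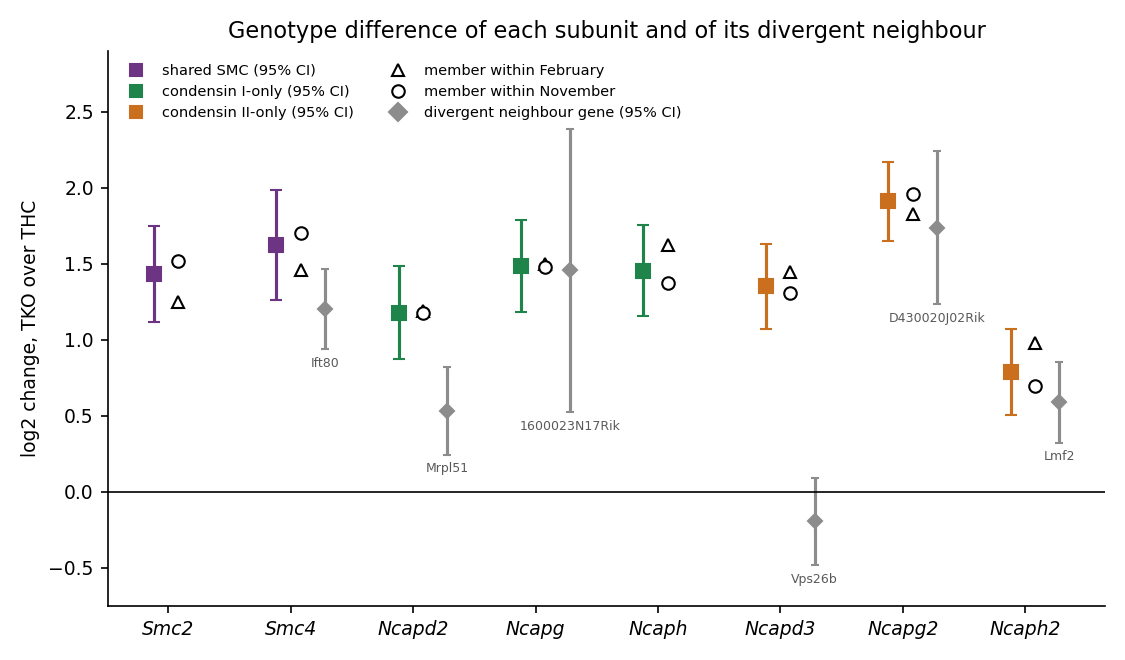
Log2 change, TKO over THC (vertical axis), of each condensin subunit gene (coloured squares, 95% CI), the same difference within the February pair (triangles) and within November (circles), and the change of the gene that starts divergently within 300 bases (grey diamonds, 95% CI). All squares lie between 0.79 and 1.91, and the divergent neighbours lie between -0.20 (Vps26b) and 1.74 (D430020J02Rik).

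The balance between the complexes was examined as the ratio of paired subunits within a library, which does not depend on the scaling of that library. The log2 ratio of the kleisins, Ncaph over Ncaph2, was -0.89, -0.93 and -1.03 in TKO 1, 2 and 3, against -1.54, -1.69 and -1.62 in THC 1, 2 and 3. The TKO mean was 0.67 above the THC mean, with 0.65 in February and 0.68 in November, and SDs of 0.070 in TKO and 0.076 in THC. The ratio of the G subunits lay the other way: Ncapg over Ncapg2 was -0.51, -0.33 and -0.59 in TKO, against -0.18, -0.09 and 0.13 in THC, a difference of -0.43. The D subunits, Ncapd2 over Ncapd3, were at 1.36, 1.51 and 1.598 in TKO, against 1.62, 1.61 and 1.76 in THC, a difference of -0.17 with 1 TKO library close to the THC range. Without TKO 1 that difference was -0.11. In these 3 pairs the genotypes did not overlap, at an exact two-sided permutation p of 0.10 (adjusted over 4 pairs, 0.13), the smallest p that 3 against 3 libraries allow. Smc2 over Smc4 was at -0.56, -0.82 and -0.62 in TKO, against -0.35, -0.47 and -0.600 in THC, and the genotypes overlapped (difference -0.19, exact permutation p = 0.20, adjusted 0.20); without TKO 2 the difference was -0.12. In TKO the kleisin ratio thus lay nearer the condensin I member and the G and D ratios nearer the condensin II member. No pair could pass a 0.05 threshold with this number of libraries, so the permutation test cannot decide whether these ratios differ.

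**Figure D3:**
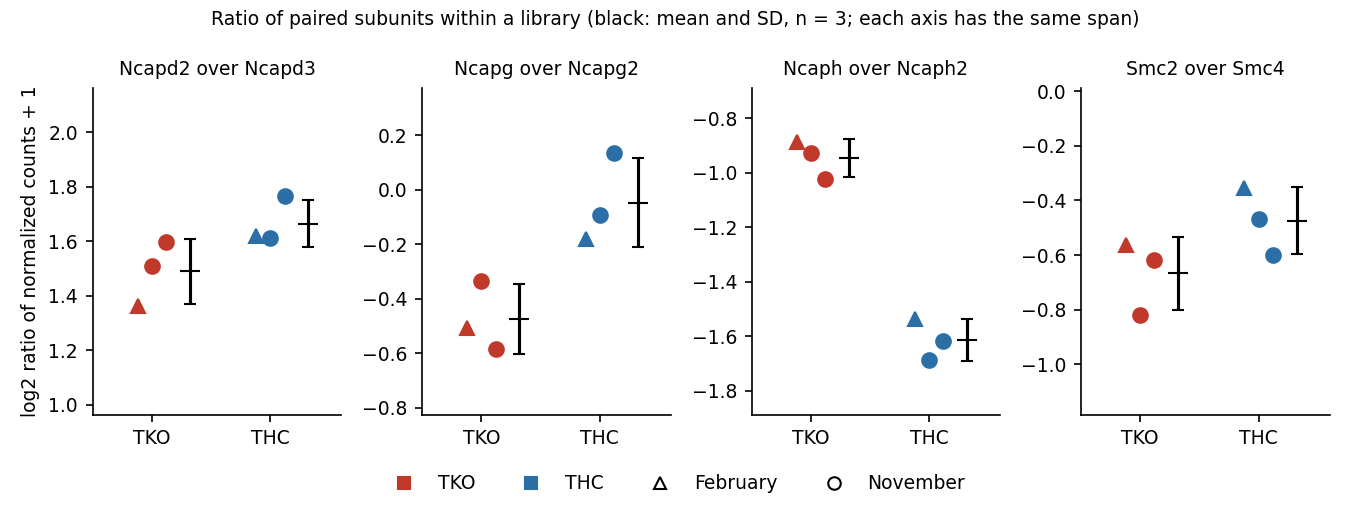
Log2 ratio of paired subunits within each library (vertical axes of equal span), with TKO left of THC, February libraries as triangles, November libraries as circles, and mean with SD of 3 libraries in black. Ncaph over Ncaph2 is higher in TKO (mean -0.95 against -1.61), Ncapg over Ncapg2 is lower (-0.48 against -0.05), and Smc2 over Smc4 overlaps.

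Levels were compared between subunits per kilobase of exon, using the union of annotated exons (4198 bases for Ncaph2 to 9939 for Ncapg2), so a gene with long rarely used exons is placed too low. The union also holds bases shared with other genes, most in Ncapg (13.4% with Lcorl) and Ncaph2 (19.7% with Sco2 and 12.7% with Tymp). Whether reads from these bases were counted is not known. The places of Ncapg and Ncaph2 and the sums per class are therefore uncertain. In TKO the order was Smc4 (2021 ± 222 normalized counts per kilobase, SD, n = 3), Ncapd2 (1309 ± 103), Smc2 (1206 ± 26.4), Ncaph2 (1050.2 ± 77.8), Ncaph (531 ± 51.7), Ncapg (398 ± 34.6), Ncapg2 (393 ± 23.8) and Ncapd3 (372 ± 57.9). Ncapd2 and Smc2 overlapped in range, as did each neighbouring pair among Ncapg, Ncapg2 and Ncapd3. In THC the top 4 were Smc4 (663 ± 134), Ncaph2 (613 ± 98.3), Ncapd2 (581 ± 77.0) and Smc2 (452 ± 77.5), each overlapping the next, followed by Ncaph (195 ± 27.4), Ncapd3 (145 ± 15.1), Ncapg (143 ± 20.7) and Ncapg2 (105 ± 13.6). By this measure the condensin II kleisin stood next to Smc4 in THC, whereas in TKO it lay below Ncapd2 and Smc2, and Ncapg2 stood last in THC but overlapped Ncapg in TKO. Summed per kilobase, the condensin I-only genes stood at 1.26, 1.24 and 1.20 times the condensin II-only genes in TKO 1, 2 and 3, against 1.18, 0.958 and 1.07 times in THC 1, 2 and 3.

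Within a genotype the libraries differed in how many subunits lay above the mean log2 value of that genotype. In TKO 1, 2 and 3 these were 5, 7 and 1 of the 8 genes, and in THC 1, 2 and 3 they were 6, 1 and 8. In THC 1 the kleisin genes Ncaph (-0.17) and Ncaph2 (-0.24) lay below their THC means, while Ncapg2 (0.19) and Smc2 (0.14) lay above. These deviations were not tested. The coefficient of variation was 2.19% to 15.6% in TKO and 10.4% to 20.2% in THC. THC 2, the lowest THC library for 6 of the 8 genes, was also the library with the highest sum of endothelial markers (10951, against 4784 and 4993 in the other THC libraries), and the part of these cells in its lower values was not tested.

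Most of the subunit genes begin within 300 bases of a gene that runs the other way. How often this holds over all genes was not counted. Beside the neighbours named here, 14.3% of all genes tested were called higher and 13.6% lower. Smc4 starts 168 bases from Ift80, a gene of intraflagellar transport, which had 2288, 2318 and 2322 in TKO, against 910, 987 and 1122 in THC (log2 change 1.20, SE 0.12, adjusted p = 2.2e-05). Ncapg2 starts 192 bases from the non-coding gene D430020J02Rik, which rose by 1.74 (SE 0.23, adjusted p = 0.00018). Ncaph2 starts 60 bases from Lmf2, which encodes a lipase maturation factor and rose by 0.59 (SE 0.12, adjusted p = 0.00365), and Ncapd2 starts 100 bases from Mrpl51, a mitochondrial ribosomal protein gene, which rose by 0.53 (SE 0.13, adjusted p = 0.0105). Vps26b, a retromer gene 110 bases from Ncapd3, had 1168, 1191 and 945 in TKO, against 1249, 1279 and 1238 in THC, and did not pass (-0.20, SE 0.13, adjusted p = 0.30). The low transcript 1600023N17Rik beside Ncapg rose by 1.46 (26.4 to 51.6 in TKO, 10.4 to 15.1 in THC), and Smc2os beside Smc2 was too low to be tested. The library chemistry does not keep the strand, and 13.4% of the exonic bases of Ncapg are shared with Lcorl, which itself rose by 0.91 (SE 0.12, adjusted p = 0.00018). For Ncaph2, 19.7% of exonic bases are shared with Sco2, which was listed at 0 in all libraries, and 12.7% with Tymp (32.2 to 37.6 in TKO, 29.1 to 110.5 in THC), and reads from these stretches cannot be told apart.

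Of 16 partners and regulators of condensin, 13 rose and 1 fell in TKO, with a median log2 change of 1.32, beside 14.3% called higher and 13.6% called lower and a median of 0.00 over all genes tested. Top2a, the topoisomerase that works beside condensin on mitotic chromosomes, rose by 1.62 (SE 0.19, adjusted p = 5.5e-05), to 20014, 22044 and 18843 in TKO, against 7454, 4967 and 7807 in THC. Kif4, a chromokinesin that acts with condensin I on the chromosome axis, rose by 1.41, and Mki67, whose product coats mitotic chromosomes, rose by 1.78. Mcph1, an inhibitor of condensin II, rose by 1.30. Among the mitotic kinases that phosphorylate condensin subunits, Cdk1 rose by 1.67, Aurkb by 1.50, Ttk by 1.54 and Plk1 by 1.19, and so did Ccnb1, the cyclin B1 gene (1.19), and the checkpoint kinase gene Bub1 (1.23). The partners of Aurora B in the chromosomal passenger complex, Birc5, Incenp and Cdca8, rose by 1.62, 1.34 and 1.28. Akap8, an anchoring protein of mitotic chromatin, was at -0.26 (SE 0.12, adjusted p = 0.135), and Ppp2ca, a catalytic subunit of the phosphatase PP2A, at 0.05 (SE 0.15, adjusted p = 0.85). Ppp2r1a, the PP2A scaffold subunit, fell by 0.51 (SE 0.14, adjusted p = 0.0168), a call that ended without TKO 1 (-0.57, adjusted p = 0.051), TKO 3 (-0.40, 0.0736) or THC 1 (-0.57, 0.0503).

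**Figure D4:**
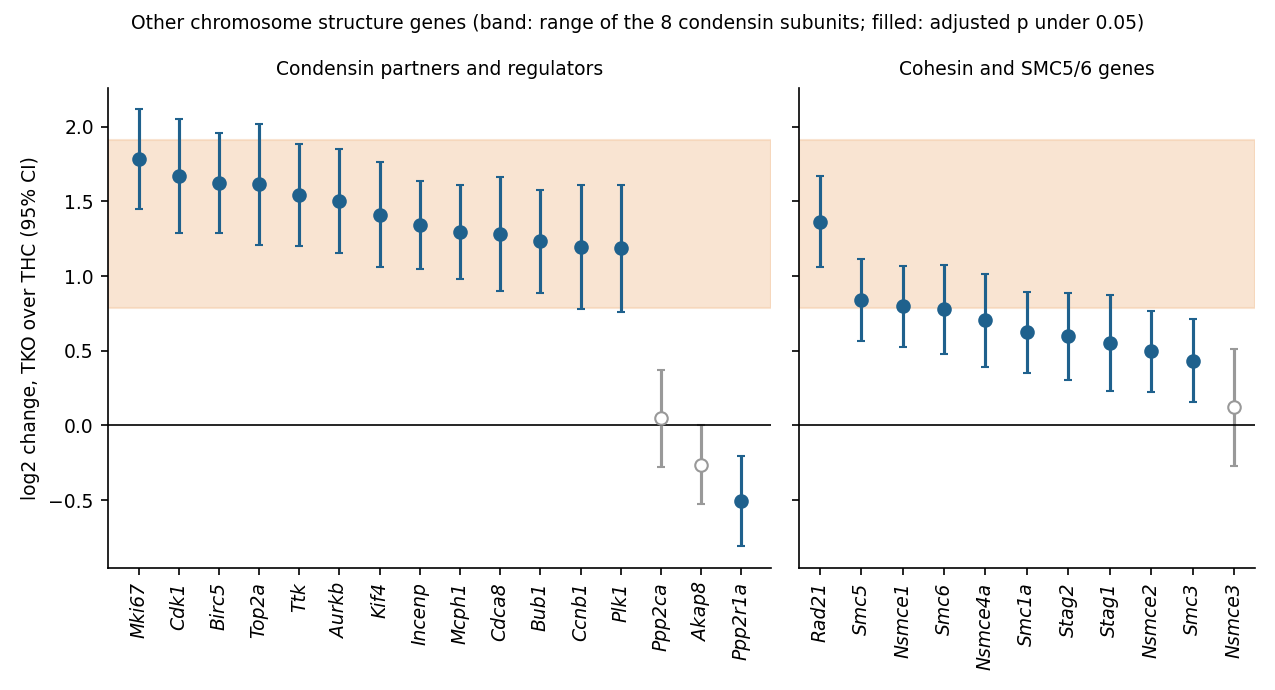
Log2 change, TKO over THC, with 95% CI (vertical axis) of 16 condensin partners and regulators and of 11 tested cohesin and SMC5/6 genes; filled points have a limma adjusted p under 0.05 and the band is the range of the 8 condensin subunits (0.79 to 1.91). The 13 partners that rose lie within the band, and of the cohesin and SMC5/6 genes Rad21 (1.36), Smc5 (0.84) and Nsmce1 (0.80) do.

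Cohesin and SMC5/6 are built around SMC dimers like condensin. Of 12 genes of cohesin, which holds sister chromatids together, and of the SMC5/6 complex of DNA repair, 11 could be tested (Eid3 was too low), 10 rose and none fell, with a median log2 change of 0.62, beside the same 14.3% and 13.6% of all genes tested. The cohesin ATPase gene Smc1a rose by 0.62 (SE 0.12, adjusted p = 0.00278). Its partner Smc3 was higher by 0.43 with an SE of 0.13 (adjusted p = 0.0241). In the SMC5/6 complex, Smc5 rose by 0.84, at an SE of 0.13 (adjusted p = 0.00044), and Smc6 by 0.78, at an SE of 0.14 (adjusted p = 0.00119). The call of Smc3 ended in the fit with the replicate number as a block (adjusted p = 0.0586), within November (0.0788) and when TKO 1, TKO 2, THC 1 or THC 2 was left out (0.0783, 0.126, 0.0817 and 0.0846). The cohesin subunit gene Stag2 rose by 0.60 (adjusted p = 0.0055), and the SMC5/6 subunit genes Nsmce1 and Nsmce4a by 0.80 and 0.70 (adjusted p = 0.00052 and 0.00328), while Nsmce3 was at 0.12 (adjusted p = 0.667). Stag1 (0.55) did not pass without TKO 2 or THC 2, nor Nsmce2 (0.50) without TKO 2. Rad21, the cohesin kleisin, stood apart in this list with a rise of 1.36 (SE 0.14, adjusted p = 2.5e-05), at 8546, 9571 and 7829 in TKO, against 2804, 3613 and 3705 in THC. The difference between the condensin and the cohesin or SMC5/6 genes was not tested.

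The genes outside the 8 with the most similar profile over the 6 libraries were ranked by Pearson's r with the mean log2 value of each class. The ranking covered 11404 genes with a mean normalized count of at least 100, without names of Gm plus digits or ending in Rik. For the SMC subunits the most similar genes were Scml2, G2e3 and Gen1 (r = 0.9997, 0.9988 and 0.9981), for condensin I-only Esco2, Tpx2 and Tacc3 (0.9993, 0.9992 and 0.9992), and for condensin II-only Orc1, Exo1 and Brip1os (0.9999, 0.9990 and 0.9989). With 6 libraries in 2 well-separated genotypes such values are frequent, since 77 to 110 genes per class had an r above 0.99. Esco2, the cohesin acetyltransferase of S phase, was at 3358, 3614 and 3001 in TKO, against 997, 844 and 1211 in THC, and Tpx2, a spindle assembly factor, at 9543, 9748 and 7735 in TKO, against 2993, 2573 and 3571 in THC. Since these genes were chosen for their likeness to the class, their order of libraries is no separate result.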

How the data were processed

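Per the submitters' processing notes, reads were handled with HISAT2, featureCounts from Subread, and DESeq2 on GRCm38; their versions, the annotation and the treatment of multi-mapping reads were not given in the sources used here. The authors' deposited table gives a normalized count per sample, a signal scaled by 1 factor per sample. All values are whole multiples of a step per column (within 0.001 of a read), which gives the depth. Per the file headers the deposited table also holds log2 fold changes (TKO over THC), a Wald score, p-values and a hypothesis weight, a further score. Members and lists were chosen with earlier results of these data known, and the report names all 8 members, called list members and the 3 most similar genes per class. A further partner gene is not reported here.

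Genes with a normalized count of at least 10 in at least 3 samples were tested with limma (version 3.58.1, R 4.3.3) on log2(value + 1), with an intensity trend and batch plus genotype, and Benjamini-Hochberg adjustment over all 17278 genes at 0.05. The model has 3 residual degrees of freedom, and the log2(value + 1) scale slightly understates changes of low genes. The fit was checked on simulated data. No libraries were duplicates (chi-square per degree of freedom 15.5 to 44.5 within genotypes). The series calls the samples biological replicates; each was a pool. Gene spans and exons came from GENCODE M21, matched by gene identifier. Same-numbered samples did not pair (correlations of deviations 0.23, -0.11 and 0.14). No count model was run. Alternatives were other pseudocounts, filters, scalings and covariates, November alone, and leaving out each library.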

Additional observations from a re-analysis of the deposited data

How the results depend on the processing

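Each of the 8 subunits kept its direction and its call in all 15 alternatives run, with log2 changes of 1.27 to 1.54 for Smc2, 1.43 to 1.77 for Smc4, 1.84 to 1.96 for Ncapg2 and 0.69 to 0.87 for Ncaph2, whose highest adjusted p was 0.0114. Leaving out TKO 1 or THC 1 leaves 1 February library, which the batch term absorbs. The log2 changes of these fits are therefore those of November alone, and they are not separate checks. With the replicate number as a block the changes stayed at 1.43 for Smc2 and 0.79 for Ncaph2, 2147 genes were called higher and 1922 lower, and among the subunits, partners and cohesin or SMC5/6 genes Smc3 lost its call; the numbers do not pair the samples. Over all genes, 1793 to 2215 were called higher and 1600 to 2031 lower when 1 library was left out. Condensin partners called lower numbered 0 to 1 and called higher 13 in each case; cohesin and SMC5/6 genes called higher numbered 7 to 10. The kleisin ratio difference ran between 0.63 and 0.70 over the libraries left out, that of the G pair between -0.50 and -0.34, that of the D pair between -0.23 and -0.11 and that of the SMC pair between -0.25 and -0.12. The median change of all genes was -0.00115 with TMM and 0.00422 with upper quartile scaling. The planned count models, edgeR and DESeq2 on reads, were not run. The precision is limited by 3 pools per genotype, and no group is large enough for an outlier test.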
